A study of Homo sapiens with 2 samples.

Results

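Alternative splicing was described for 10 genes that fuse and divide mitochondria in human AC16 cells with and without the long non-coding RNA DCRT. The 10 genes were OPA1, MFN1, MFN2, OMA1, YME1L1, DNM1L, MFF, FIS1, MIEF1 and MIEF2. They were chosen by name for their function, and every listed splicing event that carried the Ensembl identifier of 1 of them was taken. Events were listed for 9 of the 10 genes, of 8028 genes with an event in all. MIEF2 had none in either library.

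The labels give AC16, an established human line, as cardiomyocytes from heart. Cells lacking DCRT after CRISPR-Cas9 knockout (DCRT-KO) were set beside unedited cells (WT), with 1 library of each genotype and 2 libraries in all. Neither a clone number for the knockout nor a treatment was stated. The design text describes PacBio reading of long molecules, and the protocol in the labels describes paired-end Illumina libraries.

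Mitochondria join and split continuously. The mitofusins MFN1 and MFN2 join the outer membranes and OPA1 joins the inner membranes, and the proteases OMA1 and YME1L1 cut long OPA1 into short forms. For division, receptors on the outer membrane (MFF, FIS1, MIEF1 and MIEF2) recruit the dynamin DNM1L, which constricts the organelle. OPA1, DNM1L and MFF are each made in several protein forms by including or skipping small coding exons. The series title names PTBP1 as the binding partner of DCRT. PTBP1 is an RNA-binding protein that binds pyrimidine-rich stretches such as UCUU and regulates the inclusion of many exons.

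The 12 coding exons on which the description below turns are printed from the GENCODE v29 transcripts on GRCh38, in the direction of the RNA, with the motif TCTT (UCUU in RNA) in capitals. The first 9 are the known alternative exons of OPA1, DNM1L and MFF that lie inside the coding sequence, are whole codons in length and had events in both lists. The last 3 are exons of OPA1 and its protease YME1L1, of which the 15-base and the 163-base exon had an event in DCRT-KO alone.
OPA1 exon 4, chr3:193617178-193617285, plus strand, 108 bases: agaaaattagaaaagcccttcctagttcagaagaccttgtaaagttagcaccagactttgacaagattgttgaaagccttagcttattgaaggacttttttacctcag
OPA1 exon 4b, chr3:193617784-193617837, plus strand, 54 bases: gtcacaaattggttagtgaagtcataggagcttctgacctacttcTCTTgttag
OPA1 exon 5b, chr3:193626092-193626202, plus strand, 111 bases: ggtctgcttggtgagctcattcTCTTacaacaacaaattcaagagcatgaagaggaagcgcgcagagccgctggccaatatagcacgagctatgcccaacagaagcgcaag
DNM1L exon 3, chr12:32705825-32705863, plus strand, 39 bases: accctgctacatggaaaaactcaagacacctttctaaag
DNM1L exon 16, chr12:32737865-32737942, plus strand, 78 bases: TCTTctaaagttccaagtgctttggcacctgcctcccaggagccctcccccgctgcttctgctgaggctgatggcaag
DNM1L exon 17, chr12:32738264-32738296, plus strand, 33 bases: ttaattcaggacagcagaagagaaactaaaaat
MFF 75-base exon, chr2:227342745-227342819, plus strand, 75 bases: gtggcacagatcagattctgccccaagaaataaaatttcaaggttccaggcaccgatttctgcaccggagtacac
MFF 159-base exon, chr2:227347226-227347384, plus strand, 159 bases: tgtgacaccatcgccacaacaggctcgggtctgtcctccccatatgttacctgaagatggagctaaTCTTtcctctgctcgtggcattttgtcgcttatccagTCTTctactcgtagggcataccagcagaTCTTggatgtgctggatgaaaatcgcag
MFF 60-base exon, chr2:227352514-227352573, plus strand, 60 bases: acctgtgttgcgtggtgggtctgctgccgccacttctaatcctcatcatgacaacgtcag
OPA1 15-base exon, chr3:193631755-193631769, plus strand, 15 bases: agcaaaatttggaag
YME1L1 99-base exon, chr10:27142387-27142485, minus strand, 99 bases: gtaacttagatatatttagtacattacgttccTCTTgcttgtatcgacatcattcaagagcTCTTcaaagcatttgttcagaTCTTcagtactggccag
YME1L1 163-base exon, chr10:27145428-27145590, minus strand, 163 bases: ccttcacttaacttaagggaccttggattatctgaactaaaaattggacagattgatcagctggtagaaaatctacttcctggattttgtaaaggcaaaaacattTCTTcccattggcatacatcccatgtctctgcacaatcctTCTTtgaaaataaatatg

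TCTT occurred in 6 of the 12 exons. It was found 3 times in the 159-base exon of MFF, and 44.9% of all internal coding exons of that length in GENCODE v29 held it at least once. In the 99-base exon of YME1L1 it was also found 3 times, against 31.4% of exons of that length holding it, and the 163-base exon of YME1L1 held 2 matches against 48.3%. OPA1 exons 4b and 5b held 1 match each, against 15.1% and 37.6%, and DNM1L exon 16 held 1 against 26.9%. No match lay in OPA1 exon 4, the 15-base exon of OPA1, DNM1L exons 3 and 17, or the 75-base and 60-base exons of MFF, where 32.4%, 7.08%, 12.8%, 11.3%, 26.8% and 22.2% of exons of the same length held it. The other strand was searched as AAGA, which was found in 7 of the 12 exons. CTCTCT and its reverse complement AGAGAG were found in 0 of them. As CTCTCT had 0 matches, no stretch was counted both for it and for TCTT. Only the exons were searched, not the introns beside them, and a match describes letters and not a site of binding.

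Each listed event is a choice between 2 forms at 1 place in a gene, with the names of the isoforms on either side. Neither read numbers nor inclusion levels are given, so depth is unknown, and the values below count events or distinct isoforms of a library. Isoforms are not molecules, and a rare and an abundant isoform each count once. In all, 42783 events were listed for DCRT-KO and 35307 for WT, a ratio of 1.21, and a gene missing from a list may have been undetected or read in a single form. With 1 library per genotype no difference has a replicate check, and no test was possible. Fewer cells that make a transcript and less transcript per cell cannot be told apart in these bulk libraries. DCRT itself was not analysed here, so the knockout label was not checked.

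The labelled cell type was set against marker genes, of which most for cardiomyocytes had no event. Events were found for 2 of 18 cardiomyocyte markers, NPPB with 2 and MYL3 with 1, all in WT, while TNNT2, MYH6, MYH7, ACTN2 and the other markers were at 0 in both lists. Of 8 fibroblast markers 6 were listed, with 3 events in DCRT-KO and 501 in WT, of which COL1A1 held 405. More events were in WT for 5 of the 6, while PDGFRA held 2 in DCRT-KO and 0 in WT. Of 4 smooth muscle markers 2 were listed, with 0 events in DCRT-KO and 34 in WT. For 4 epithelial markers the order was the opposite, with 44 events in DCRT-KO and 19 in WT, all from KRT8 and KRT18. No endothelial marker of 4 was listed. The libraries thus differed in genes outside the mitochondrial set, and the part of this in the values below was not tested.

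For the 10 genes together, 107 events were listed in DCRT-KO and 63 in WT, a ratio of 1.7. In these events 107 DCRT-KO isoforms and 68 WT isoforms were named, a ratio of 1.57. More isoforms were named in DCRT-KO for 7 of the 9 listed genes, against 50.3% of all genes with an event. The DCRT-KO list held more events than the WT list for 8 of the 9 genes and fewer for 1, MFN1. Among all genes with an event 52.4% held more in DCRT-KO and 37.4% held more in WT. At least 2 times as many events in DCRT-KO were listed for 5 of the 9 genes (OPA1, OMA1, YME1L1, DNM1L and FIS1), against 40.1% of all genes, and at least 2 times as many in WT for 1 (MFN1), against 28.2%. Counting only events with both forms on isoforms of the library, DNM1L held 12 against 7 and FIS1 held 0 in both, so neither kept that ratio. Events were listed in both libraries for 7 of the 9, against 63.6% of all genes. OMA1 and FIS1 were listed in DCRT-KO alone. After division by the length of each list, 6 genes were higher in DCRT-KO and 3 were higher in WT, as MFN2 and MFF changed sides. The plot of events by gene and type shows these numbers.

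**Figure D1:**
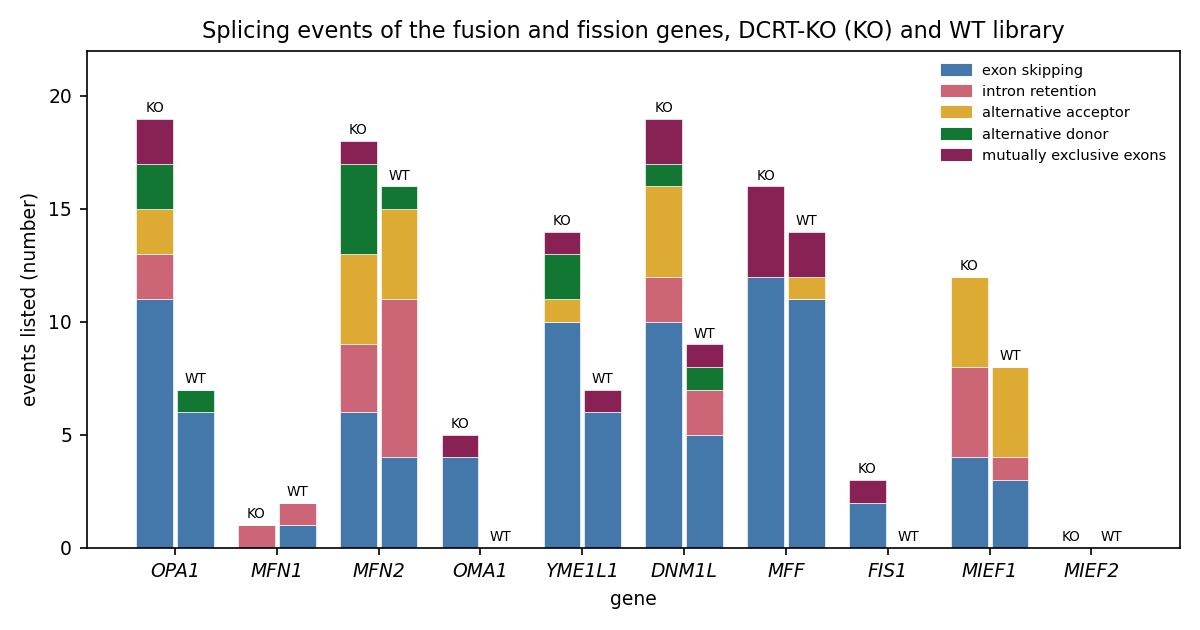
Events listed for each of the 10 genes in the DCRT-KO and the WT library, as stacked bars of the 5 event types (axis: number of events, from 0). OPA1 and DNM1L reached 19 events each in DCRT-KO against 7 and 9 in WT, and MFF reached 16 against 14.

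Skipped exons led in both libraries. Exon skipping made up 59 of the 107 DCRT-KO events (55.1%, exact 95% interval 45.2 to 64.8) and 36 of the 63 WT events (57.1%, 44.0 to 69.5). The corresponding shares over all genes were 39.7% in DCRT-KO and 34.5% in WT. Retained introns were fewer than over all genes, with 12 events in DCRT-KO (11.2%, 5.93 to 18.8, against 28.6%) and 11 in WT (17.5%, 9.05 to 29.1, against 35.1%). The intervals cover counting error only and treat events as independent, although events of a gene share isoforms. The remaining types were alternative acceptors with 15 and 9 events, mutually exclusive exons with 12 and 4, and alternative donors with 9 and 3. Mutually exclusive exons thus made up 11.2% in DCRT-KO (5.93 to 18.8, against 4.7% over all genes) and 6.35% in WT (1.76 to 15.5, against 3.71%). The shares of acceptors were 14.0% (against 15.7%) and 14.3% (against 15.5%), and those of donors were 8.41% (against 11.3%) and 4.76% (against 11.1%). Coding sequence was touched by 69 of the 107 DCRT-KO and 38 of the 63 WT events. The share over all genes was not computed, so this describes the listed events only.

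Among the 63 WT events, 40 were also in the DCRT-KO list with identical positions (63.5%, 50.4 to 75.3), against 35.7% of all WT events. In the other direction 43 of the 107 DCRT-KO events were in the WT list (40.2%, 30.8 to 50.1), against 30.6% of all DCRT-KO events. For exon skipping alone the shares were 30 of 36 WT events (83.3%, 67.2 to 93.6, against 49.6%) and 32 of 59 DCRT-KO events (54.2%, 40.8 to 67.3, against 37.4%). The recurring segments were mainly exons that annotated coding transcripts already differ in. GENCODE v29 holds 39 such exons in the 10 genes, of which 24 were listed in DCRT-KO, 19 in WT and 18 in both. Over all genes 55.3% of the known alternative exons listed in DCRT-KO were in the WT list, and 67.1% of those in WT were in the DCRT-KO list. Skipped segments that are no annotated exon numbered 15 in DCRT-KO and 5 in WT, of which 3 were in both. Over all genes 16.6% of such segments in DCRT-KO and 21.7% of those in WT were in the other list. Other annotated exons numbered 9 and 5, with 2 in both, against 28.8% and 44.9% over all genes. An annotated transcript can supply 1 form of an event, so an exon can be listed in both libraries without both forms being read in both. Isoforms of the library itself supplied each form in 82 of the 107 DCRT-KO events (76.6%, against 85.3% over all genes) and 51 of the 63 WT events (81.0%, against 84.8%). In most events 1 form rested on a single isoform or transcript, 90 of 107 in DCRT-KO (84.1%) and 49 of 63 in WT (77.8%), against 83.9% and 85.5% over all genes.

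OPA1, the inner membrane fusion GTPase (ENSG00000198836, chr3:193593144-193697823, plus strand), held 19 events in DCRT-KO on 20 isoforms and 7 in WT on 10 isoforms. All 7 WT events were also in the DCRT-KO list. Its protein forms differ at exons 4, 4b and 5b, all of whole codons, and exon 5b encodes the site that YME1L1 cuts. Exon 4 was included in 10 DCRT-KO isoforms and skipped in 1 (90.9% included, exact 95% interval 58.7 to 99.8), and in WT it was included in 7 and skipped in 1 (87.5%, 47.3 to 99.7). Exon 4b showed the opposite balance, included in 4 DCRT-KO isoforms and skipped in 10 (28.6%, 8.39 to 58.1), and included in 1 WT isoform and skipped in 7 (12.5%, 0.316 to 52.7). Exon 5b was included in 6 DCRT-KO isoforms and skipped in 7 (46.2%, 19.2 to 74.9), and included in 5 WT isoforms and skipped in 2 (71.4%, 29 to 96.3). Most isoforms of both libraries thus held exon 4 and lacked 4b, while 5b was split, and for each exon the intervals of the libraries overlapped.

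Along single isoforms, the state of an exon was also taken from the flanking exons that other events give, so totals can exceed those above. The state of all 3 exons could be read for 13 of 15 DCRT-KO isoforms and 7 of 9 WT isoforms. In DCRT-KO 5 isoforms held exon 4 alone, 4 held exons 4 and 5b, 2 held exons 4 and 4b, 1 held all of them and 1 held 5b alone. In WT 4 isoforms held exons 4 and 5b, 2 held exon 4 alone and 1 held 5b alone. Exon 4 with 5b and exon 4 alone were therefore the leading forms in both libraries, in the opposite order. An isoform of 4b with all exons read was found in DCRT-KO alone, while in WT the 1 isoform with 4b was not read at every exon.

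Further OPA1 exons fell into those that most isoforms held and those that most skipped. The 58-base noncoding exon at chr3:193603500-193603557 was skipped by 12 of 14 DCRT-KO and 7 of 8 WT isoforms. The 319-base exon at chr3:193614723-193615041 was skipped by 1 of 12 DCRT-KO and 2 of 8 WT isoforms, and the 105-base exon at chr3:193635418-193635522 by 1 of 13 and 1 of 7. The 15-base exon printed above was skipped by 12 DCRT-KO isoforms and held by 0 (upper bound 26.5%), its other form coming from an annotated transcript, and WT listed no event there. A pair of donors 25 bases apart (193655027 and 193655052) was used by 15 and 1 isoforms in DCRT-KO and by 4 and 1 in WT. At each of these positions the minor form rested on at most 2 library isoforms. The retained introns (2), alternative acceptors (2) and mutually exclusive exons (2) of OPA1 were all in DCRT-KO.

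**Figure D2:**
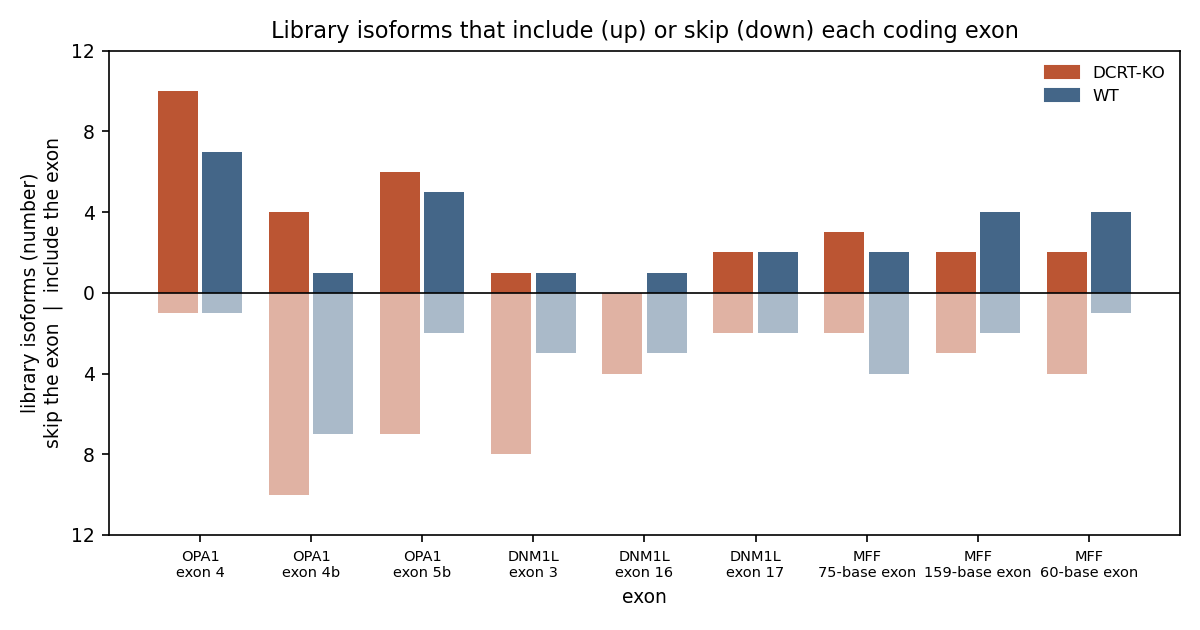
Number of library isoforms that include or skip the known alternative coding exons of whole codons in OPA1, DNM1L and MFF that had events in both lists, in DCRT-KO and WT (axis: distinct isoforms). Exons were matched at their exact ends. OPA1 exon 4b was skipped by 10 of 14 DCRT-KO and 7 of 8 WT isoforms, and the 60-base exon of MFF was included by 2 of 6 and 4 of 5.

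MFN2, a mitofusin that also tethers mitochondria to the endoplasmic reticulum (ENSG00000116688, chr1:11980181-12013514, plus strand), held 18 events in DCRT-KO on 35 isoforms and 16 in WT on 26 isoforms. Several of its events lay ahead of the coding sequence. The 145-base exon at chr1:11981970-11982114 was included in 12 DCRT-KO isoforms and skipped in 3 (80.0%, 51.9 to 95.7), and in WT it was included in 10 and skipped in 4 (71.4%, 41.9 to 91.6). Acceptors at 11981810, 11981970 and 11981974 were used by 1, 13 and 3 isoforms in DCRT-KO and by 1, 10 and 2 in WT. The order of these choices was the same in both libraries. A 68-base exon at chr1:11982523-11982590 was included in 2 of 16 DCRT-KO isoforms and had no event in WT.

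Intron retention was the type in which MFN2 held more in WT, 7 events against 3. None of these segments is an intron annotated in GENCODE v29. In each event the spliced form rested on 1 library isoform and on no annotated transcript, and the unspliced form on 1 to 9 library isoforms. The events thus turned on single isoforms that lacked the segment. All 3 segments in DCRT-KO and 6 of the 7 in WT lay 3' of the coding sequence. Splice-site ends of GT and AG were found in 1 of the 3 DCRT-KO segments and 0 of the 7 WT segments. No such segment had the same ends in both lists. With the intron retention events left out, MFN2 held 6 more events in DCRT-KO than in WT.

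MFN1, the other mitofusin (ENSG00000171109, chr3:179347692-179394931, plus strand), held 1 event in DCRT-KO and 2 in WT on 3 isoforms each. A 141-base intron was retained by 1 DCRT-KO isoform. In WT a 105-base exon at chr3:179377344-179377448 was skipped by 1 isoform and a 1700-base intron was retained by 1 isoform. No MFN1 event was in both lists.

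YME1L1, the inner membrane protease that cuts OPA1 at the site of exon 5b (ENSG00000136758, chr10:27110112-27155266, minus strand), held 14 events in DCRT-KO on 14 isoforms and 7 in WT on 8. The 99-base exon was included in 10 DCRT-KO isoforms and skipped in 1, and in WT it was included in 5, with the skipped form coming from annotated transcripts. For the 163-base exon, which is not a whole number of codons, 6 DCRT-KO isoforms included it and 4 skipped it (60.0%, 26.2 to 87.8), and WT had no event there. At the 171-base exon (chr10:27147498-27147668) the 5 WT isoforms in its events all skipped it. DCRT-KO had no event with the ends of that exon, but 1 isoform held and 1 skipped a 1273-base segment (chr10:27146396-27147668) that contains it. A 55-base exon that is partly coding (chr10:27153227-27153281) was included in 1 of 12 DCRT-KO and 1 of 7 WT isoforms.

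OMA1, the stress-activated protease that cuts OPA1 (ENSG00000162600, chr1:58415384-58546802, minus strand), held 5 events on 7 isoforms in DCRT-KO and none in WT. Exons of 129 bases (chr1:58530601-58530729) and 108 bases (chr1:58533953-58534060) were each skipped by single isoforms. The 33-base exon ahead of the coding sequence at chr1:58542483-58542515 was included by 1 isoform and skipped by 1.

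DNM1L, the dynamin that divides mitochondria (ENSG00000087470, chr12:32679200-32745650, plus strand), held 19 events in DCRT-KO on 9 isoforms and 9 in WT on 6. Exon 3 encodes an insert in the GTPase domain, and exons 16 and 17 encode part of the variable domain. Exon 3 was included in 1 DCRT-KO isoform and skipped in 8 (11.1% included, 0.281 to 48.2), and in WT it was included in 1 and skipped in 3 (25.0%, 0.631 to 80.6). At the exact ends of exon 16, 0 DCRT-KO isoforms included it and 4 skipped it, while in WT 1 included it and 3 skipped it. Outside these counts, 1 DCRT-KO isoform held exon 16 from an earlier acceptor. Another held exon 16, the intron after it and exon 17 as 1 segment. In WT, 1 isoform held exon 16 within a retained intron. At its exact ends, exon 17 was included in 2 and skipped in 2 isoforms in both libraries. Isoforms that held exon 17 with other ends, or were read only from flanking exons, are not in these counts. In the counts at exact ends, skipping of exons 3 and 16 was thus the more frequent form in both libraries, on 4 to 9 isoforms.

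For 5 of 9 DCRT-KO isoforms and 2 of 6 WT isoforms of DNM1L, all 3 exons could be read together. In DCRT-KO 2 isoforms held none of the exons, 1 held exons 3 and 17, 1 held exons 16 and 17 and 1 held exon 17 alone. The DCRT-KO isoform with exons 16 and 17 started exon 16 at 32737802, which is 63 bases ahead of the annotated acceptor and keeps whole codons. In WT 1 isoform held exons 3 and 17 and 1 held none. The form without any of these exons and the form with 3 and 17 were thus read in both libraries.

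The region of exons 16 and 17 also carried retained introns. A DCRT-KO isoform kept the 321-base intron between the exons and another kept the 1767-base intron after exon 17. A WT isoform kept the 1102-base intron ahead of exon 17, a stretch that contains exon 16. Each of these retained forms rested on 1 isoform. Exons of 110 bases (chr12:32740409-32740518) and 160 bases (chr12:32742589-32742748), neither of whole codons, were each skipped by 1 DCRT-KO isoform, against 5 and 6 that held them. Of the 9 WT events of DNM1L 6 were in the DCRT-KO list.

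MFF, the main receptor of DNM1L (ENSG00000168958, chr2:227325151-227357836, plus strand), held 16 events in DCRT-KO on 7 isoforms and 14 in WT on 8. Of these, 14 DCRT-KO and 12 WT events were in the other list. The 75-base exon was included in 3 DCRT-KO isoforms and skipped in 2 (60.0%, 14.7 to 94.7), and in WT it was included in 2 and skipped in 4 (33.3%, 4.33 to 77.7). The 159-base exon was included in 2 DCRT-KO isoforms and skipped in 3 (40.0%, 5.27 to 85.3), and in WT it was included in 4 and skipped in 2 (66.7%, 22.3 to 95.7). For the 60-base exon, 2 DCRT-KO isoforms included it and 4 skipped it (33.3%, 4.33 to 77.7), against 4 that included and 1 that skipped it in WT (80.0%, 28.4 to 99.5). The more frequent form was therefore not the same in the libraries at any of these 3 exons, on 5 or 6 isoforms each, and the intervals overlapped at all of them. No single event at these exons had 2 or more library isoforms on each form in either library.

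Read along single MFF isoforms, 6 of 6 DCRT-KO and 4 of 7 WT isoforms gave all 3 exons. In DCRT-KO 2 isoforms held the 75-base exon alone, 1 held all of them, 1 held the 75-base and 60-base exons, 1 held the 159-base exon alone and 1 held none. In WT 2 isoforms held the 159-base and 60-base exons, 1 held all of them and 1 held the 159-base exon alone. All 4 WT isoforms read at every exon held the 159-base exon, as did 2 of the 6 in DCRT-KO, while 2 WT isoforms that were not read at every exon skipped it. A further WT isoform entered the 159-base exon 117 bases after its annotated start.

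**Figure D3:**
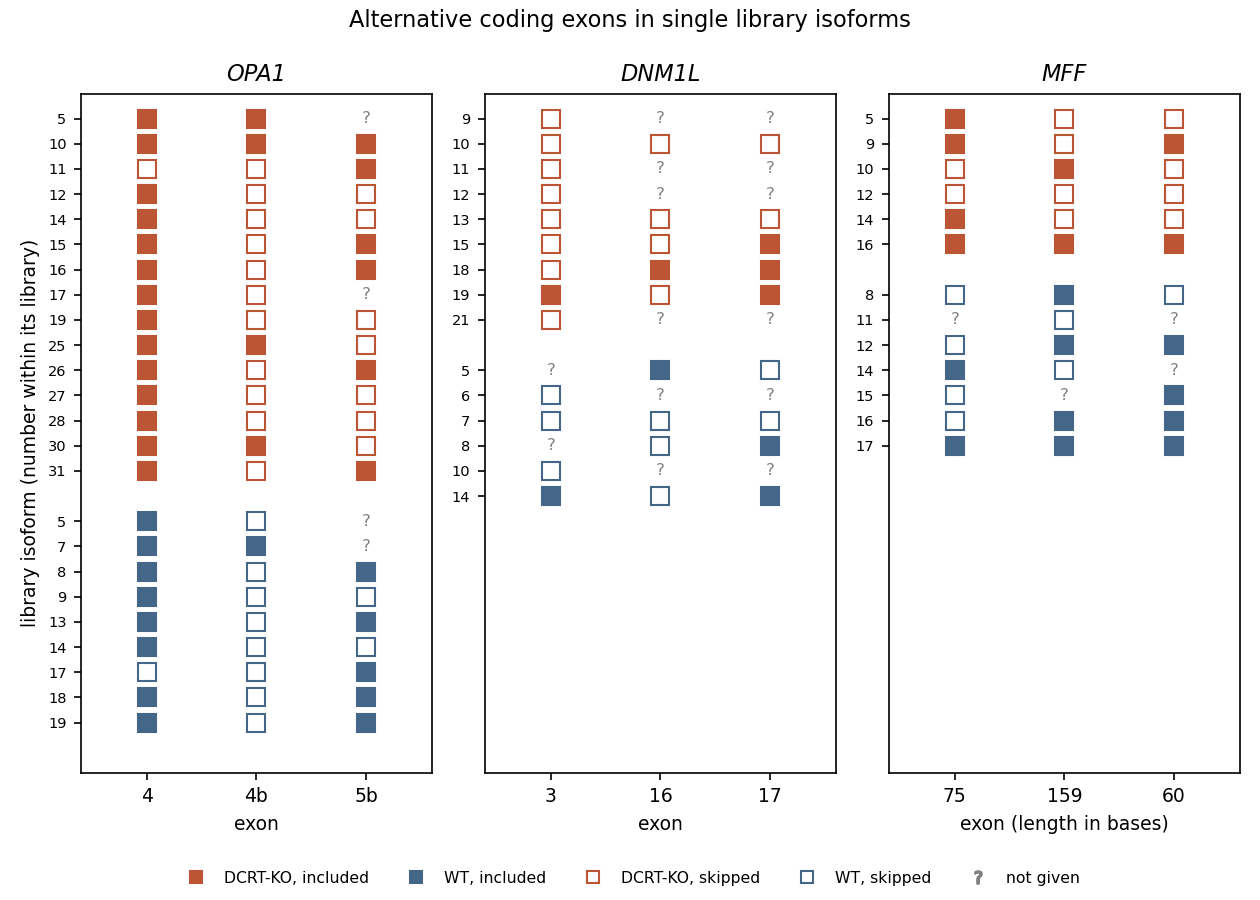
Library isoforms of OPA1, DNM1L and MFF (rows) against the known alternative coding exons of whole codons that had events in both lists (columns). Exons are marked as included, skipped or not given by the events, and isoforms without any of them given are left out. In MFF all 4 WT isoforms with every exon given hold the 159-base exon, against 2 of 6 in DCRT-KO, and 2 WT isoforms with an exon not given skip it.

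At the 5' end of MFF, the 112-base exon at chr2:227328678-227328789 was included in 3 DCRT-KO isoforms and skipped in 0, and in WT it was included in 4 and skipped in 2. The 178-base exon at chr2:227329606-227329783 was included in 2 and skipped in 3 in DCRT-KO, and included in 1 and skipped in 4 in WT. The 221-base exon at chr2:227330626-227330846 was included in 0 and skipped in 1 in DCRT-KO and included in 2 and skipped in 1 in WT. These exons were listed in both libraries.

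FIS1, an outer membrane adaptor (ENSG00000214253, chr7:101239458-101252316, minus strand), held 3 events in DCRT-KO and none in WT. In 1 of them, the skipping of the 133-base coding exon at chr7:101244007-101244139, both forms came from annotated transcripts alone. The others rested on 1 library isoform, set against an annotated transcript. That isoform held a 57-base segment at chr7:101241126-101241182 that is no annotated exon. In the event of mutually exclusive exons it held this segment in place of the 133-base exon.

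MIEF1, a receptor that binds DNM1L at the outer membrane (ENSG00000100335, chr22:39499432-39518132, plus strand), held 12 events in DCRT-KO on 11 isoforms and 8 in WT on 7. The 234-base exon ahead of the coding sequence at chr22:39509338-39509571 was included at its exact ends in 1 of 9 DCRT-KO and 1 of 3 WT isoforms. From a later acceptor at 39509444, a further 1 isoform in each library held the last 128 bases of this exon. A pair of acceptors 86 bases apart (39512232 and 39512318) was used by 5 and 1 isoforms in DCRT-KO and by 2 and 3 in WT. Of the 8 WT events 7 were in the DCRT-KO list. Intron retention was listed 4 times in DCRT-KO and 1 time in WT. Annotated introns of 410, 205 and 291 bases were retained in DCRT-KO by 1 isoform each. The other DCRT-KO segment, of 115 bases, is no annotated intron, and its spliced form rested on 1 isoform. MIEF2, the paralogue of MIEF1 (ENSG00000177427, chr17:18260534-18266552, plus strand), had no event in either list, which includes the case of a single isoform.

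**Figure D4:**
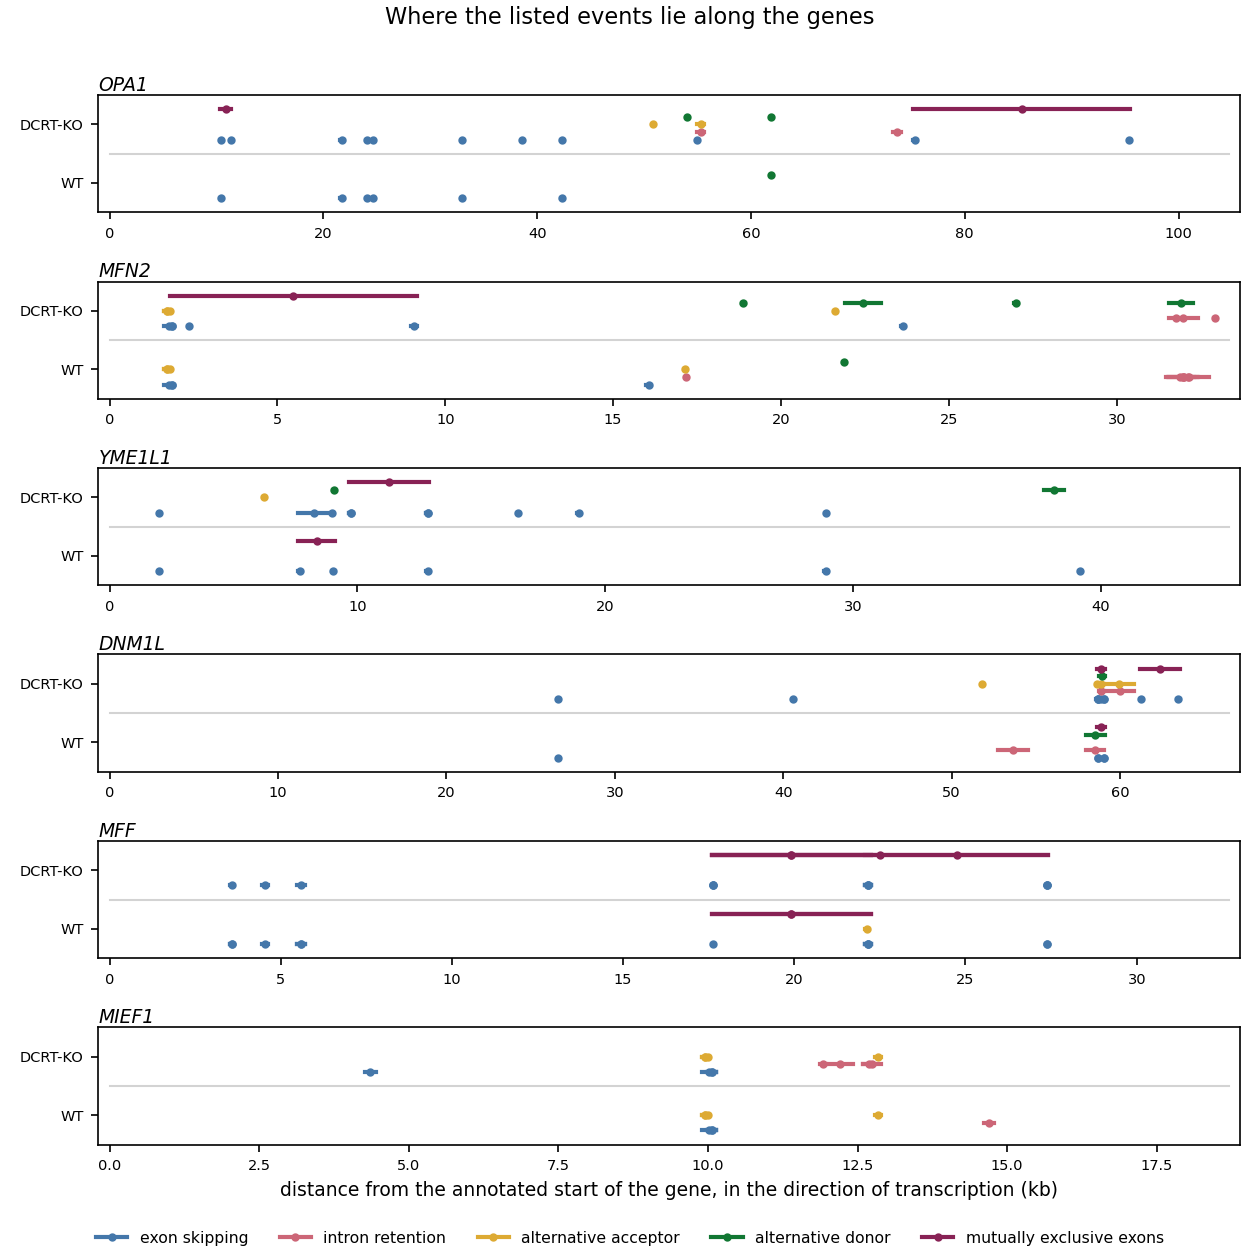
Listed events along OPA1, MFN2, YME1L1, DNM1L, MFF and MIEF1 by distance from the annotated start of the gene in kilobases, for DCRT-KO and WT, with a line for the extent and a point for the middle of each event and the type given by colour. OPA1 holds 19 events in DCRT-KO against 7 in WT, and 6 of the 7 intron retention events of MFN2 in WT lie 3' of the coding sequence.

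Beyond the 10 genes, 40 further genes of mitochondrial shape, quality control and transport were examined, of which 34 were listed. More events were found in DCRT-KO for 17 of them and in WT for 12, with 5 equal, and they held 206 and 179 events in all. The median difference over listed genes was 0.5 events, against 4.0 over the 9 listed fusion and fission genes and 1.0 over all genes with an event. The differences with more in DCRT-KO were led by FAF2, a ubiquitin-binding membrane protein, with 20 events against 2, CLUH, which binds messenger RNAs of mitochondrial proteins, with 9 against 2, and SPG7, an inner membrane protease subunit, with 8 against 2. RHOT2 and RHOT1, the GTPases that link mitochondria to motor proteins, held more in WT, with 39 events in DCRT-KO against 49 and with 6 against 12. MSTO1, a gene linked to mitochondrial fusion, held 10 in DCRT-KO and 17 in WT, and is uncertain because a near-identical pseudogene exists. PTBP1 itself held 15 events in DCRT-KO on 33 isoforms and 7 in WT on 21.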

How the data were processed

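RNA of 2 AC16 libraries was measured, 1 DCRT-KO and 1 WT, grouped by the genotype labels. The authors deposited 5 tables of splicing events per library, 10 in all, with isoform names and splice positions and no counts, levels or scores. Reads were aligned to hg38 with minimap2, per the submitters' processing notes. For the isoform builder, the event caller, the annotation release and support filters, details are not given in sources used here. A longer list may come from more reads or higher expression, so numbers of events mix depth, expression and splicing.

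Rows were selected by gene identifier, and 8021 of 8028 identifiers had a symbol. Positions were compared with GENCODE v29 (GRCh38), where 34 of 34 annotated transcripts from the events of these genes were found. A known alternative exon is an internal exon that at least 1 annotated coding transcript includes and another spans and skips. Isoforms were assigned to its forms from exon skipping and mutually exclusive exon events at its exact ends. Combinations also used the flanking exons of annotated carriers and gave 0 conflicts. Shared events have identical type, chromosome and positions.

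Shares carry exact (Clopper-Pearson) 95% intervals for counting error only. No p-value was computed, since each group is 1 library. All 10 genes are named, with PTBP1 and the 3 genes of the wider list with the largest difference in each direction. The genes and lists were chosen with earlier results of these data known. The counting was tested on simulated data and recovered 200 of 200 genes. Python 3.11.15, scipy 1.17.1, numpy 2.4.6 and matplotlib 3.10.9 were used. Alternatives changed how rows, isoform support, retained introns, gene assignment, list length and matching positions were treated.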

Additional observations from a re-analysis of the deposited data

How the results depend on the processing

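Support by isoforms limits these results most. When each form had to be on 2 or more isoforms of the library, 12 events in DCRT-KO (of 107) and 7 in WT (of 63) were left, with 3 genes higher in DCRT-KO (8 before) and 0 in WT. Isoforms that include or skip an exon were also summed over the known coding exons of whole codons of OPA1, DNM1L and MFF listed in both libraries. An isoform can count at several exons in this sum. With the same demand it fell from 71 to 27 in DCRT-KO and from 52 to 7 in WT. What was left came from OPA1 exons 4b and 5b in DCRT-KO and from OPA1 exon 5b in WT, and none from DNM1L or MFF. With both forms on library isoforms, 6 genes held more in DCRT-KO (8 before) and 2 in WT (1 before), the difference fell from 10 to 5 for DNM1L and from 3 to 0 for FIS1, MFF moved from 2 more in DCRT-KO to -2, and shared events numbered 28 in DCRT-KO and 26 in WT (43 and 40 before). After division by list length 3 genes held more in WT, and the differences per 10000 list events were -0.324 for MFN2 and -0.225 for MFF, which held 2 more events each in DCRT-KO before. With rows of the same type and positions counted once, MFF differed by 0. The causes were not tested. The counts of events, of genes with more events and of shared events stayed within 1.5 times their value when gene assignment, retained introns or matching positions were treated otherwise. No paired analysis was possible because each genotype has 1 library, and for the same reason no replicate could be left out. Depth is unknown, and an exon without an event may have been undetected or read in a single form.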
